A study of Mus musculus with 12 samples.

Results

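The NMDA receptor subunits were the 7 mouse genes Grin1, Grin2a, Grin2b, Grin2c, Grin2d, Grin3a and Grin3b, taken by exact match of the gene name among the 55487 genes measured. All 7 were found. Levels are given in FPKM, which scale the fragments of a gene to its length and to the size of the library, so that genes of different length can be compared. Grin1, Grin2a, Grin2b, Grin2d and Grin3a exceeded 1 FPKM on average in 1 or more of the 6 groups and were tested among 16471 genes in all. Grin2a, Grin2b and Grin3a reached this level only in groups given PBS, so these 3 entered the test through the condition in which they were high. Grin2c and Grin3b stayed under it and were tested only in a fit without the filter.

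The data were RNA-seq of retinas, with 12 libraries and 2 per group, and addressed how loss of the transcription factor Pax6 or of the kinase JNK3 changes the transcriptional reaction of the retina to excitotoxic injury. WT retinas came from C57BL/6J mice, JNK3 KO retinas from Jnk3-/- mice, in which every cell lacks the kinase, and shPax6 retinas from eyes that had received 2 μL of an AAV vector with a U6-driven shRNA against Pax6 and GFP. Each eye was injected intravitreally with 1 μL of PBS or with the same volume of 40 mM NMDA, an amount of 40 nmol. RNA of more than 3 retinas went into a library, the mice given the vector were 2 months old while the ages behind the other libraries are not given in the sources used here, and no library of retinas with the scrambled control vector was analysed here, so shPax6 differs from WT by the vector as well as by the shRNA. The descriptions do not say whether the libraries of a group came from separate mice, and the p-values measure only the spread between these libraries.

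NMDA receptors are glutamate-gated cation channels that let calcium into the cell. They open only when glutamate and a co-agonist, glycine or D-serine, are bound and depolarization has lifted the magnesium block. Every receptor contains GluN1, the product of Grin1. GluN2 subunits, from Grin2a to Grin2d, bind glutamate and set the kinetics and the magnesium block, and GluN3 subunits, from Grin3a and Grin3b, bind glycine and lower the passage of calcium. In the retina, ganglion and amacrine cells are the best known sites of NMDA receptors, and overactivation by injected NMDA kills ganglion cells.

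Grin1 (ENSMUSG00000026959, GRCm38, chromosome 2, 25291181 to 25319187, minus strand) gave the most abundant transcripts of the family and has 8 annotated coding transcripts, which are all combinations of inclusion or skipping of the N1 cassette, inclusion or skipping of the C1 cassette, and the C2 or the C2′ form of the last exon. The N1 cassette of 63 bases lies in the extracellular amino-terminal domain and is coding sequence at chr2:25311343-25311405. The C1 cassette of 111 bases (chr2:25294438-25294548) and the last exon encode the intracellular tail. These sequences from GENCODE M21 are shown because they are the parts by which the Grin1 products differ. Each runs 5′ to 3′ on the minus strand of GRCm38, with 15 bases of the neighbouring exon in lower case and the cassette, or the first bases of the last exon, in capitals.
N1 included: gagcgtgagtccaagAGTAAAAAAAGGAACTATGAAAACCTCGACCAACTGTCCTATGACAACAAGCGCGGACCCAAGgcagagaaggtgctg
N1 skipped: gagcgtgagtccaaggcagagaaggtgctg
C1 included: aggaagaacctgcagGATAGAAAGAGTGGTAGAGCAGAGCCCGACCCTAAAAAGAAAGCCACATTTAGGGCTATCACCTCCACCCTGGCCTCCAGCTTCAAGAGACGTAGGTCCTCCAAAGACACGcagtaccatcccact
C1 skipped: aggaagaacctgcagcagtaccatcccact
C2 form of the last exon: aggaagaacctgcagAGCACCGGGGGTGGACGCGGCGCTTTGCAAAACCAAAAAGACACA
C2′ form of the last exon: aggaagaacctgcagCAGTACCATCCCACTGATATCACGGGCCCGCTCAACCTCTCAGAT
The C1 examples are transcripts that carry the C2′ form, and the C2 and C2′ examples are transcripts that skip C1. The 111 bases of C1 are 37 codons and the 63 bases of N1 are 21 codons, so either can be skipped without a change of reading frame.

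The other members differ widely in size. Grin2a (chromosome 16, 9567898 to 9995560) and Grin2b (chromosome 6, 135713233 to 136173511) have dominant transcripts of 14.6 and 24.1 kb, whereas those of Grin1, Grin2d (chromosome 7, 45831883 to 45878378) and Grin3a (chromosome 4, 49661611 to 49845744) measure 3.8, 5.4 and 7.4 kb. Grin2c lies on chromosome 11 (115249169 to 115267243) and Grin3b on chromosome 10 (79970715 to 79977190), the latter being the only member on the plus strand. RefSeq promoter windows (GRCm38.p6, 250 bases before to 50 after the start) were at hand for Grin1, Grin2c, Grin2d and Grin3b. The CRE motif TGACGTCA was in none of these 4 windows, against 1.8% of 32544 promoters searched on both strands. An AP-1-like pattern with any base at its centre, TGANTCA, occurred in the Grin3b window as TGATTCA, and in 7.8% of all promoters. The GC box GGGCGG occurred 1 time in the Grin1 window and 3 times in that of Grin2c, against 35.9% of all promoters with at least 1 match.

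Under PBS the targeted genes were lower where the labels place the knockdown and the knockout. Pax6 measured 173.48 and 177.30 FPKM in WT given PBS and 94.56 and 92.84 FPKM in shPax6 given PBS, and Mapk10, which encodes JNK3, 42.79 and 50.72 FPKM in WT and 9.47 and 8.75 FPKM in JNK3 KO. After NMDA they did not separate the genotypes in this way: Pax6 measured 55.42 and 53.81 FPKM in WT and 67.52 and 58.73 FPKM in shPax6, and Mapk10 8.98 and 6.00 FPKM in WT and 6.65 and 13.77 FPKM in JNK3 KO. Rod markers were the most abundant of the cell type lists in all 12 libraries, with sums of 20069.2 to 34922.8 FPKM. From the steps between low values, depth was estimated at 21.5 to 27.0 (in units of 1e6 fragments) per library. At these estimates 63.2% to 77.4% of the low values lay within 0.12 of a whole fragment. Each estimate was chosen for the highest such share, so the 24% for unrelated values at a fixed setting is not a like comparison. The libraries WT NMDA replicate 1, shPax6 PBS replicate 1 and shPax6 NMDA replicate 1 had the fewest genes above 0 FPKM, 18089 to 18853 against 19855 to 22259 in the others, and are called the low-complexity libraries. The WT NMDA libraries also stood apart in their FPKM sums (805627 and 820180, against 541210 to 576922) and in a dependence of the response on transcript length, which bears on the long members and is given with their results.

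Grin1 was the most abundant subunit in every group. In WT given PBS it measured 28.4 ± 1.95 FPKM (SD, n = 2), followed by Grin2d at 2.33 ± 0.12, Grin2b at 1.69 ± 0.205, Grin2a at 1.49 ± 0.12, Grin3a at 1.39 ± 0.007, Grin2c at 0.645 ± 0.021 and Grin3b at 0.315 ± 0.035 FPKM. The libraries of Grin2b and Grin2a overlapped in this order, and those of the other neighbours did not. Grin2d held second place in all 6 groups, although single libraries of Grin2a, Grin2b and Grin3b in shPax6 given PBS, and of Grin2c in shPax6 given NMDA, reached or exceeded its lower library. The places below it were not stable: Grin2a, just below Grin2b in WT given PBS, was last in the NMDA groups of WT and shPax6, with 0.11 ± 0.057 and 0.065 ± 0.007 FPKM. By estimate, 556 to 2507 fragments stood behind a Grin1 value, 21 to 523 behind one of Grin2a and 0 to 29 behind one of Grin3b.

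**Figure D1:**
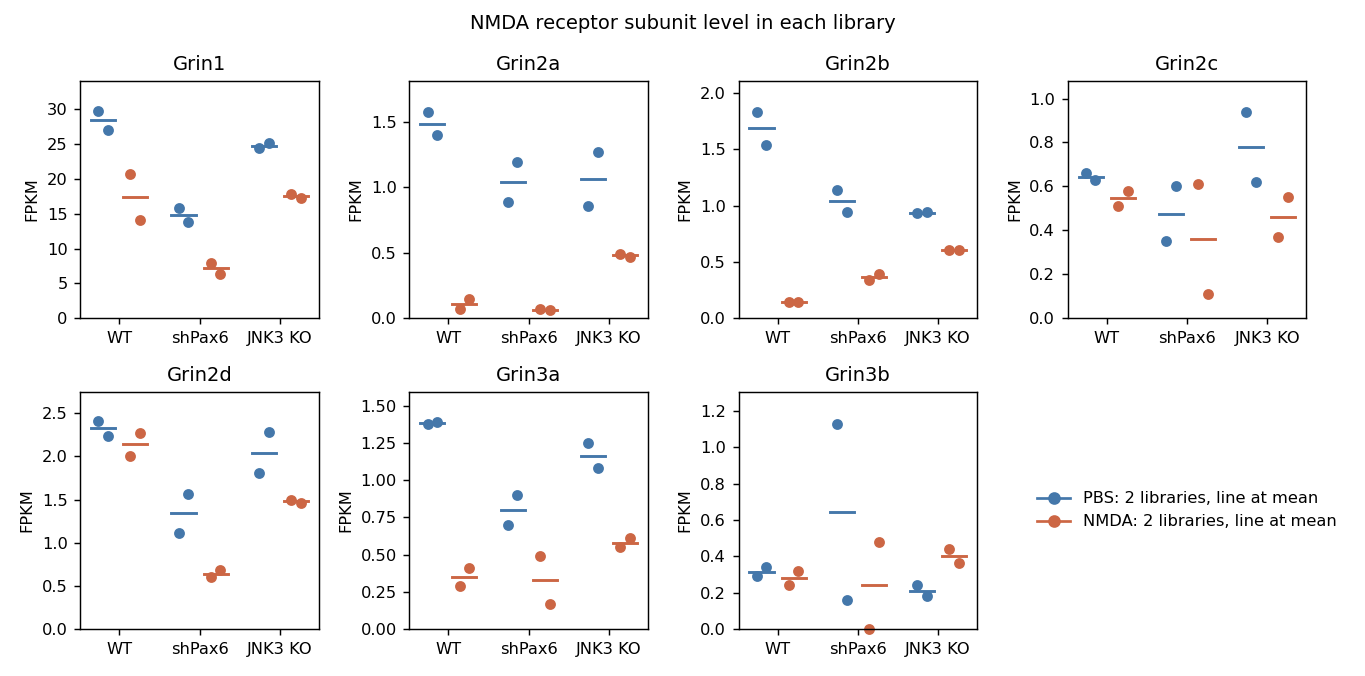
FPKM (vertical axes, linear and separate for each gene) of the 7 subunits in the 12 libraries, grouped by genotype on the horizontal axis; points are libraries and lines the means of 2. The NMDA points of Grin2a and Grin2b in WT lie between 0.07 and 0.15 FPKM, against 1.40 to 1.83 FPKM under PBS, while those of Grin2d in WT overlap.

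In WT retinas, 4 of the 5 tested subunits were lower after NMDA and Grin2d was not detectably changed. Of these, Grin2a, Grin2b and Grin3a passed the filter only through PBS groups, which favours falls. The count itself thus supports nothing about the family. The falls were largest in Grin2a and Grin2b, the GluN2 subunits of most NMDA receptors in the mature forebrain. Grin2a went from 1.57 and 1.40 FPKM under PBS to 0.07 and 0.15 FPKM, with no overlap (log2 fold change -2.94, SE 0.43, limma, Benjamini-Hochberg adjusted p = 0.000296). Grin2b went from 1.83 and 1.54 to 0.14 and 0.14 FPKM (log2 fold change -2.89, SE 0.35, adjusted p = 8.4e-05). They ended at 7.4% and 8.3% of their PBS means.

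Grin3a, a glycine-binding subunit, fell from 1.38 and 1.39 to 0.29 and 0.41 FPKM (log2 fold change -1.74, SE 0.45, adjusted p = 0.00793). The obligatory Grin1 fell less, from 29.79 and 27.03 to 20.73 and 14.09 FPKM, that is to 61.3% of its PBS mean (log2 fold change -0.73, SE 0.18, adjusted p = 0.00589), a call that was lost in the fit without a filter and with the spread of the compared groups alone. Its NMDA libraries differed from each other more than its PBS libraries did, but both lay below both PBS libraries. Grin2d, whose product gives slow currents with weak magnesium block, measured 2.41 and 2.24 FPKM under PBS and 2.01 and 2.27 FPKM after NMDA, with overlapping libraries (log2 fold change -0.12, 95% CI -0.73 to 0.49, adjusted p = 0.743). Rescaled to TPM, which removes the higher FPKM sums of the WT NMDA libraries and moves the median of all genes to -0.66, the log2 fold changes were -1.30 for Grin1 and -0.67 for Grin2d, the latter still not called.

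Across all genes, 33.8% were called lower in WT after NMDA, 44.3% had both NMDA libraries below both PBS libraries, and the median log2 fold change was -0.09, against -1.74 over the 5 tested subunits. The response depended on transcript length: the median was -0.66 over 4719 genes of 3 to 6 kb, -1.34 over 1239 genes of 6 to 10 kb and -1.75 over 239 genes above 10 kb (Spearman rho of log2 fold change and length -0.54, across genes, which are not independent replicates). Read against their own length class, the members separated. Grin1 sat close to the class median, with 46.7% of its class as low or lower, as did Grin3a to a lesser degree, with 28.6%. Grin2a and Grin2b fell further than most long genes, since 8 and 9 other genes of the 239 above 10 kb were as low or lower. Both passed the filter only through PBS groups, which favours such low ranks, so these are a description. Grin2d stood above its class median, with 76.9% of the class as low or lower.

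After each library was corrected for its own length trend, none of the 4 falls in WT passed the adjusted threshold. The corrected log2 fold changes were -1.11 for Grin2a (adjusted p = 0.0593, range over 24 alternatives 3.76e-05 to 0.0593), -0.68 for Grin2b (adjusted p = 0.145, range 5.23e-06 to 0.145), -0.44 for Grin3a (adjusted p = 0.456, range 0.000504 to 0.456) and -0.16 for Grin1 (adjusted p = 0.461, range over 25 alternatives 0.000187 to 0.461). Grin2d was then higher after NMDA by 0.89 (adjusted p = 0.0219, range 0.0219 to 0.961). A change of long transcripts as a class and a technical length effect cannot be told apart here, because the trend occurs in both WT NMDA libraries.

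**Figure D2:**
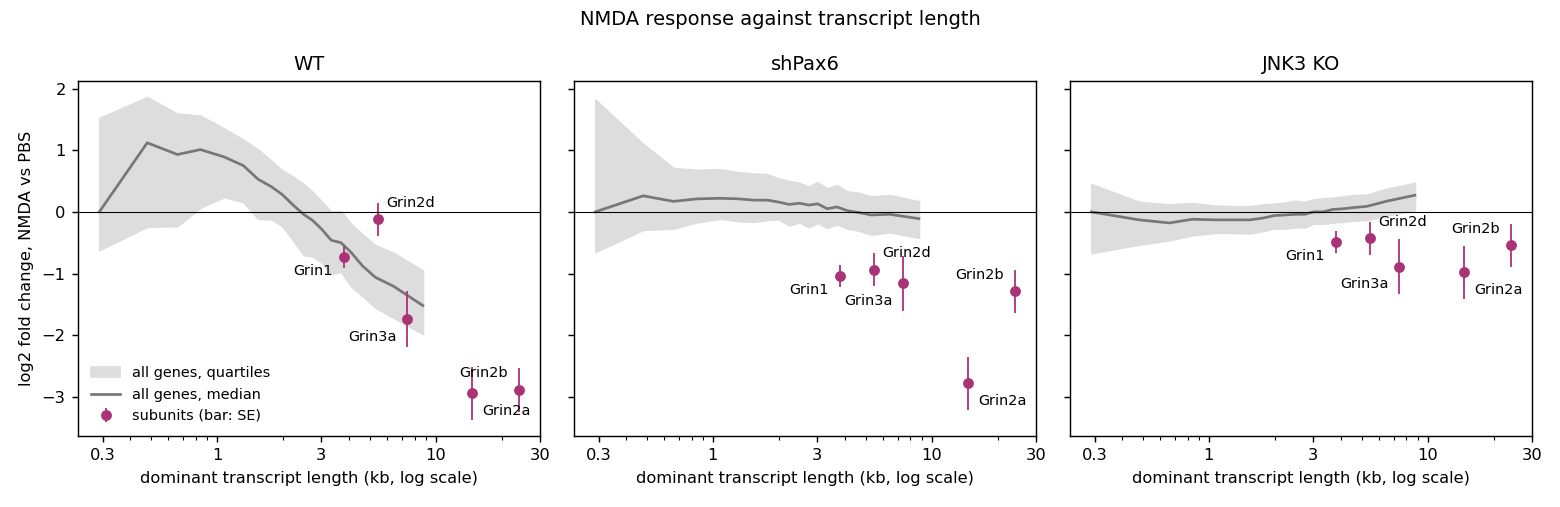
Log2 fold change of NMDA against PBS (vertical axis) by length of the dominant transcript (horizontal log axis, kb) in each genotype; the grey line and band are the median and quartiles of all tested genes in 20 length bins, and points are the 5 tested subunits with their SE. The grey line falls with length in WT but is nearly flat in shPax6, where the 5 subunits lie between -2.78 and -0.94. The line ends before Grin2a and Grin2b, at 14.6 and 24.1 kb, because few genes are as long.

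In shPax6 retinas, where the genes above 10 kb had a median of only -0.14, 4 of the 5 tested subunits fell after NMDA, against 11.0% of all genes called lower. The count includes Grin2a and Grin2b, which passed the filter only through PBS groups. The count and the ranks of these genes among long genes thus have the same limit as in WT. Grin2a dropped from 0.89 and 1.19 FPKM to 0.07 and 0.06 FPKM (log2 fold change -2.78, SE 0.43, adjusted p = 0.00139), and 0 of the other genes above 10 kb had a log2 fold change as low. Grin2b went from 1.14 and 0.94 to 0.34 and 0.39 FPKM (log2 fold change -1.29, SE 0.35, adjusted p = 0.0221). The channel-forming Grin1 went from 15.81 and 13.77 to 7.91 and 6.38 FPKM (log2 fold change -1.04, SE 0.18, adjusted p = 0.00217).

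Grin2d, which gives slow currents, went from 1.11 and 1.57 to 0.60 and 0.68 FPKM in shPax6 (log2 fold change -0.94, SE 0.27, adjusted p = 0.0271). Its responses in WT and shPax6 were not shown to differ (WT minus shPax6 0.83, 95% CI -0.03 to 1.69, adjusted p = 0.101). Grin3a measured 0.70 and 0.90 FPKM under PBS and 0.49 and 0.17 FPKM after NMDA, a difference of -1.16 that missed the threshold (SE 0.45, adjusted p = 0.08). The libraries of all 5 tested subunits were lower after NMDA without overlap, which held for 22.0% of all genes. Length correction left Grin1 (-1.12), Grin2a (-2.59) and Grin2d (-0.94) called and ended the call of Grin2b (-1.01, adjusted p = 0.0598, range over 24 alternatives 0.000276 to 0.099). With the spread of the compared groups alone Grin1, Grin2b and Grin2d lost their calls, and Grin2d also with a pseudocount of 1. The call of Grin2d was lost without shPax6 PBS replicate 2 or shPax6 NMDA replicate 1, and that of Grin2b without shPax6 PBS replicate 1. Grin3a was called without the low-complexity shPax6 NMDA replicate 1, at -1.73.

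In JNK3 KO retinas all 5 tested subunits were lower after NMDA in both libraries, which held for 32.8% of all genes, but none passed the adjusted threshold, while 6.10% of all genes were called lower. Unadjusted, Grin1 and Grin2a had p under 0.05. Grin2a measured 0.86 and 1.27 FPKM under PBS and 0.49 and 0.47 FPKM after NMDA (log2 fold change -0.98, 95% CI -1.97 to -0.00, adjusted p = 0.206). Grin2b measured 0.93 and 0.94 FPKM, then 0.61 and 0.61 FPKM (log2 fold change -0.54, 95% CI -1.34 to 0.25, adjusted p = 0.399). The replicates of Grin2b were close, whereas the PBS libraries of Grin2a were not. After the length correction the log2 fold changes were larger, at -1.35 for Grin2a and -1.03 for Grin2b, and still not called.

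Grin1 measured 24.44 and 25.12 FPKM under PBS and 17.86 and 17.28 FPKM after NMDA in JNK3 KO (log2 fold change -0.49, SE 0.18, adjusted p = 0.12). Grin2d went from 1.81 and 2.28 to 1.50 and 1.46 FPKM (-0.43, adjusted p = 0.38), and Grin3a from 1.25 and 1.08 to 0.55 and 0.61 FPKM (-0.89, adjusted p = 0.267). Genes above 10 kb went the other way in this genotype, with a median of 0.32, so that 1.26% and 2.94% of them were as low as or lower than Grin2a and Grin2b. Both genes passed the filter only through PBS groups, which limits these ranks as well. The count of calls changed with settings. Without the 3 low-complexity libraries, none of which is from JNK3 KO, Grin1, Grin2a and Grin3a were called with unchanged log2 fold changes (adjusted p = 0.0168, 0.0478 and 0.0239, against highest values of 0.575, 0.505 and 0.6 over their alternatives). Omission of the intensity trend called Grin2a and Grin2b, and a spread from the JNK3 KO libraries alone called Grin1 and none of the other 4.

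Grin2c, a GluN2 subunit known mainly from cerebellum and glia, ranged from 0.11 to 0.94 FPKM and Grin3b from 0.00 to 1.13 FPKM over the 12 libraries. Grin3b was listed at 0 in 1 library, shPax6 NMDA replicate 1, and at 1.13 FPKM in shPax6 PBS replicate 1, with 0.16 FPKM in the other shPax6 PBS library. Both extremes came from libraries of low complexity, and the libraries of Grin3b overlapped between PBS and NMDA in WT and shPax6. In the fit of all 55487 genes without a filter, Grin2c had log2 fold changes after NMDA of -0.21, -0.54 and -0.65 in WT, shPax6 and JNK3 KO, and Grin3b of -0.13, -1.23 and 0.69. None of these 6 differences passed (limma, adjusted p from 0.802 to 1), and their standard errors of 0.57 and 0.98 left changes of several fold undetectable.

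**Figure D3:**
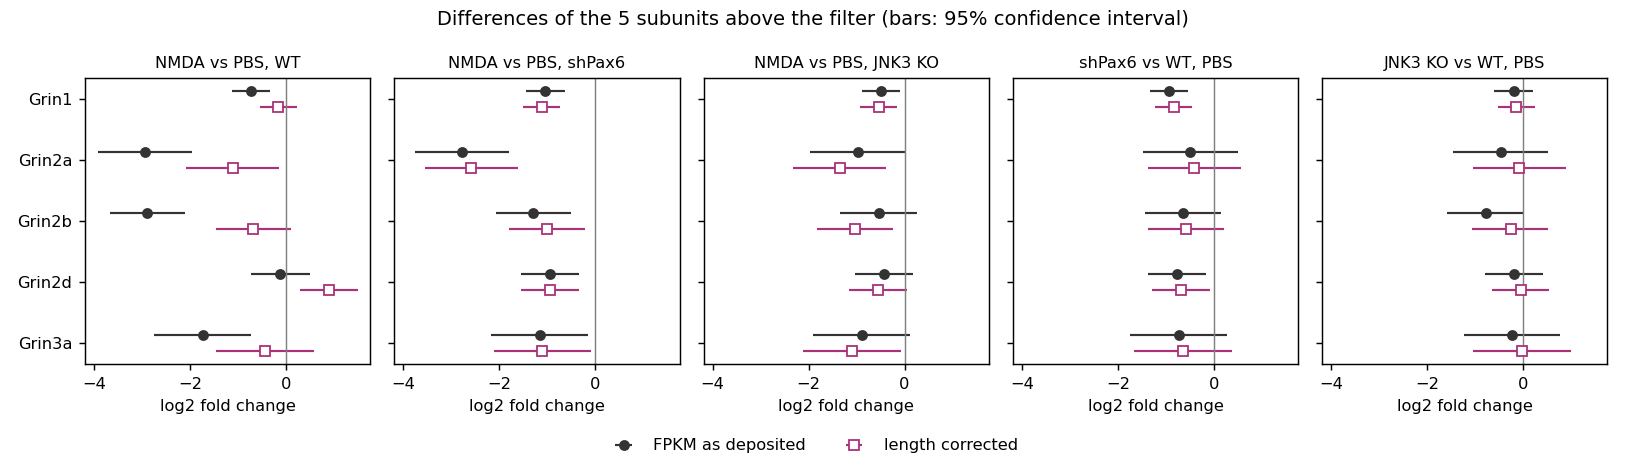
Log2 fold change (horizontal axes, 1 scale for all panels) of the 5 tested subunits in 5 comparisons, as deposited (filled circles) and after correction of each library for its length trend (open squares); bars are 95% confidence intervals. The correction moves Grin2b from -2.89 to -0.68 in WT and from -1.29 to -1.01 in shPax6.

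Before any NMDA was given, shPax6 retinas had less Grin1 than WT retinas. It measured 15.81 and 13.77 FPKM against 29.79 and 27.03 FPKM, 52.1% of the WT mean (log2 fold change -0.94, SE 0.18, adjusted p = 0.00727), with 11.2% of all genes called lower. The other tested subunits had lower libraries too, without overlap (35.1% of all genes), but did not pass: Grin2d had a log2 fold change of -0.77 (adjusted p = 0.088), Grin3a of -0.73 (adjusted p = 0.318), Grin2b of -0.65 (adjusted p = 0.259) and Grin2a of -0.49 (adjusted p = 0.512). The Grin1 call was lost without WT PBS replicate 1, at -0.87 and an adjusted p of 0.0682, and in the fit without a filter at 0.08 (range over 25 alternatives 0.00274 to 0.08). Between JNK3 KO and WT under PBS no subunit was called, with 1.51% of all genes called in either direction. The largest of these differences was that of Grin2b, 0.93 and 0.94 against 1.83 and 1.54 FPKM (log2 fold change -0.78, 95% CI -1.58 to 0.01, adjusted p = 0.338), and no subunit had an unadjusted p under 0.05. This comparison also depended on length (rho -0.345 across genes, median -0.36 above 10 kb), and the corrected value of Grin2b was -0.26.

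Markers of the retinal neurons that carry NMDA receptors changed as well. The summed FPKM of 15 ganglion cell markers, as a share of WT given PBS, was 61.2% in WT after NMDA, 34.0% and 12.7% in shPax6 under PBS and after NMDA, and 97.3% and 27.8% in JNK3 KO. That of 15 amacrine markers was 41.8%, 66.9%, 22.2%, 94.6% and 52.5% in the same order. Grin1 stood at 61.3%, 52.1%, 25.1%, 87.2% and 61.8%. The WT NMDA libraries had the higher FPKM sums (805627 and 820180, against 541210 to 576922), and these shares were not rescaled. The shares of WT after NMDA are therefore not directly comparable with those of the other groups. In JNK3 KO after NMDA the ganglion cell sum was lower relative to WT given PBS than Grin1 was, and in shPax6 likewise, both under PBS and after NMDA. The sum follows its most abundant markers: Thy1 measured 142.02 and 144.87 FPKM in WT under PBS and 135.95 and 153.62 FPKM after NMDA. Counted by gene, 12 of the 15 were called lower and 1 higher after NMDA in WT (median log2 fold change -2.13). In shPax6 11 were lower (-2.45) and in JNK3 KO 10 (-1.64), and 0 were higher in either. Of all genes, 33.8%, 11.0% and 6.10% were called lower. No ganglion cell marker was at 0 outside shPax6 given NMDA, where 1 and 2 of the 15 were. Neutrophil markers summed to 1946.8 and 1985.5 FPKM in WT given NMDA, against 5.2 to 235.0 FPKM in the other groups. Other lists moved most in shPax6, where, under PBS and after NMDA, microglia markers stood at 349.5% and 1017.6% of WT given PBS, Mueller glia markers at 249.5% and 399.3%, and cone markers at 193.8% and 47.6%. Single genes weighed heavily in these sums. Apoe, in the Mueller glia list, measured 219.48 and 226.46 FPKM in WT given PBS. In shPax6 it measured 979.88 and 916.06 FPKM under PBS and 1929.76 and 2083.60 FPKM after NMDA. Under PBS, 3 of 7 Mueller glia markers were called higher in shPax6 than in WT and 1 lower. After NMDA in shPax6, 3 were higher and 2 lower. Of 8 microglia markers, 4 were higher in each comparison, as were 5.36% and 19.1% of all genes. FPKM are relative to each library's total, and whether such rises affected the values of other genes was not tested. Fewer cells of a type and less RNA per cell cannot be told apart in bulk retina, and the part of cell composition in the subunit levels was not tested.

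Of the 5 tested subunits, 1 had a called difference in response for WT minus shPax6 and 2 for WT minus JNK3 KO, below the shares of all genes. These calls concern Grin2a and Grin2b, which passed the filter only through PBS groups and were highest in WT given PBS (1.49 and 1.69 FPKM). This favours a larger fall in WT, so the differences are given as a description. The fall of Grin2b was larger in WT than in shPax6, with a log2 difference of -1.60 (SE 0.50, adjusted p = 0.0244), and larger than in JNK3 KO, with one of -2.35 (SE 0.50, adjusted p = 0.00342). The fall of Grin2a was larger in WT than in JNK3 KO, with a log2 difference of -1.96 (SE 0.61, adjusted p = 0.0242). The difference between shPax6 and JNK3 KO, -1.79, missed the threshold (adjusted p = 0.0765) in a comparison with 17.7% of all genes called, and it had an unadjusted p under 0.05 with an absolute log2 value above 1, as 3.47% of all genes did on the lower side. WT and shPax6 did not differ detectably for Grin2a (-0.16, 95% CI -1.55 to 1.22). These comparisons share libraries, 49.7% and 51.4% of all genes were called in the differences of WT from shPax6 and from JNK3 KO, and the genes above 10 kb had medians of -1.42 and -2.02. Of the genes above 10 kb, 39.9% and 34% were as low as or lower than Grin2b in these 2 differences. For Grin2a in WT minus JNK3 KO it was 54.6%. The Grin2b difference from shPax6 was lost without WT PBS replicate 1, with a pseudocount of 1 and with quantile normalization (-0.86), and that of Grin2a from JNK3 KO without WT PBS replicate 1 or JNK3 KO PBS replicate 1, with a pseudocount of 1 and with quantile normalization (-1.34). With the length correction the Grin2a difference from JNK3 KO became 0.24, and those of Grin2b 0.33 and 0.35. The corrected fit instead called a smaller fall in WT than in shPax6 for Grin1 (0.96, adjusted p = 0.0128, range over 25 alternatives 0.0128 to 0.89) and a response of Grin2d that was higher in WT (1.83, adjusted p = 0.00509, range 0.00509 to 0.472).

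The balance between Grin2a and Grin2b, which distinguishes mature from immature receptors in many brain regions, was compared within libraries as the log2 ratio of FPKM + 0.1, which understates the ratio where both genes are low, as they are after NMDA. Under PBS it lay between -0.32 and 0.40 in the 6 libraries, close to equal levels. After NMDA it was -1.37 and -1.61 in shPax6, below both PBS libraries, -0.27 and -0.32 in JNK3 KO and -0.50 and 0.06 in WT, where it overlapped with PBS. Averaged over genotypes the ratio was lower after NMDA by -0.66 (two-sided exact permutation test within genotypes, p = 0.0556, 216 arrangements, smallest possible p 0.00926). With length correction, which changes the ratio because Grin2b is longer, the difference was -0.78 (exact p = 0.00926).

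Grin1 made up 72% to 80.2% of the summed FPKM of the 7 subunits under PBS and 77.1% to 86.4% after NMDA. Its share was higher after NMDA by 3.38 percentage points on average (two-sided exact permutation test, p = 0.0185), with differences of 4.07 in WT, 4.64 in shPax6 and 1.42 in JNK3 KO. The NMDA libraries lay above both PBS libraries in shPax6 and JNK3 KO, and WT NMDA replicate 2, at 78.5%, was level with WT PBS replicate 1. After the length correction the difference was no longer past the threshold (exact p = 0.657), nor was it without either WT PBS library. The sum itself, which was not tested, was 36.3 ± 2.38 FPKM under PBS and 21.0 ± 4.26 FPKM after NMDA in WT, 20.1 ± 1.41 and 9.15 ± 1.24 FPKM in shPax6, and 31.0 ± 0.721 and 21.6 ± 0.339 FPKM in JNK3 KO (SD, n = 2).

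At the level of transcripts, 13 of the 39 annotated products of the family had a group mean above 1 FPKM. Those of Grin2a, Grin2b, Grin2d and Grin3a were 1 per gene. Grin3a-201 in WT, and Grin2b-201 and Grin2d-201 in shPax6, were not called although their genes were. Among 49940 transcripts, of which 23.5% were called lower in WT after NMDA, Grin2a-206 (-2.89, adjusted p = 0.0049), Grin2b-201 (-2.89, adjusted p = 0.00342) and Grin1-201 (adjusted p = 0.0248) were called. In shPax6, with 3.63% of transcripts called lower, Grin2a-206 (-2.49, adjusted p = 0.0325) and Grin1-201 (adjusted p = 0.0388) were called, and none was in JNK3 KO, with 0.775% called lower. Grin2a-206 exceeded a mean of 1 FPKM only in WT given PBS, and Grin2b-201 only in WT and shPax6 given PBS. Their calls in WT thus come from a group that admitted them to the test and support nothing. Grin1-201, which skips N1 and contains C1 and C2, measured 0.42 and 1.07 FPKM in WT given PBS, 0.72 and 1.48 FPKM in shPax6 given PBS and was listed at 0 in all 4 NMDA libraries of these genotypes, so no fold is given. It exceeded a mean of 1 FPKM only in shPax6 given PBS, so its call in shPax6 comes from the group that admitted it to the test and supports nothing. It is a minor product, since Grin1-207, with N1 and C2′ but not C1, had 9.45 and 13.07 FPKM in WT given PBS, and Grin1-205, without N1 and C1 and with C2′, 9.26 and 5.98 FPKM.

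The shares of the cassettes shown above differed widely between replicates in several groups. N1 was in 52.5% and 52.8% of the summed coding Grin1 FPKM of WT given PBS and in 41.0% and 17.7% after NMDA. The pairs in shPax6 were 59.1% and 19.4% under PBS and 94.6% and 19.9% after NMDA, and those in JNK3 KO 38.2% and 48.5%, then 33.3% and 36.7%. C1 ranged from 0.0% to 49.2% over the 12 libraries, and the C2 form of the last exon from 5.4% to 39.7%, with C2′ in the rest. The highest share of N1 and the lowest of C1 came from shPax6 NMDA replicate 1, in which 2 of the 8 coding transcripts were above 0, and the highest share of C1 from shPax6 PBS replicate 1, in which 6 were. Without the 3 low-complexity libraries, N1 ranged from 17.7% to 52.8%. Both NMDA libraries had a lower share of N1 than both PBS libraries in WT and in JNK3 KO, while those of shPax6 overlapped. These shares were not tested, and only 3 and 4 of the 8 coding transcripts were above 0 in the WT NMDA libraries.

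**Figure D4:**
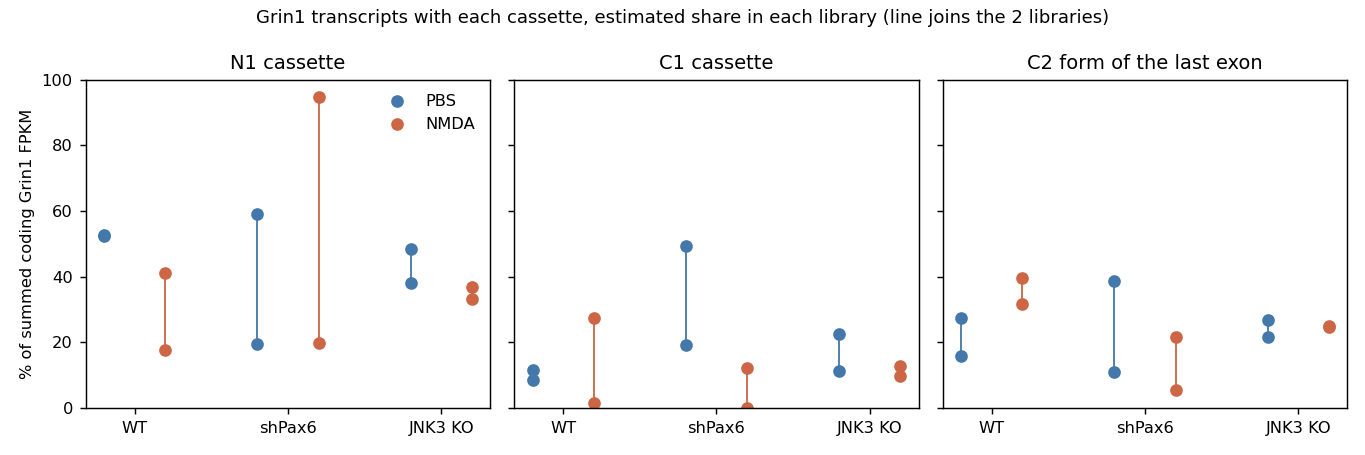
Estimated share of the summed FPKM of the 8 coding Grin1 transcripts (vertical axis, percent) that contains N1, C1 or the C2 form of the last exon, by genotype and treatment; points are libraries and lines join the 2 of a group. The shPax6 pairs are the widest for N1, from 19.4% to 59.1% under PBS and from 19.9% to 94.6% after NMDA.

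Partners of the receptor were followed with a list of 41 genes, of which 40 were tested. The list was chosen with earlier results of these data known, so its counts are a description. After NMDA in WT, 30 fell and 2 rose, against 33.8% of all genes called lower and 26.0% higher (median log2 fold change -1.02). After the length correction 21 fell and 3 rose, against 22.7% of all genes called lower and 23.9% higher (median -0.51). In shPax6, 15 fell and 3 rose (median -0.32), with 11.0% of all genes called lower and 19.1% higher. In JNK3 KO 5 fell and 1 rose (median -0.15), with 6.10% called lower and 4.33% higher. The postsynaptic scaffolds, which anchor the receptor, had 13 of 16 lower in WT, 6 in shPax6 and 2 in JNK3 KO, with medians of -1.55, -0.64 and -0.15. Of the 12 kinases and phosphatases 9 were lower and 1 higher in WT, and of the 4 genes that supply or remove the co-agonists 3 were lower.

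Shank1, a scaffold, fell the furthest of the partners named by rule, from 18.38 and 16 FPKM to 2.68 and 2.39 FPKM in WT (log2 fold change -2.71, SE 0.18, adjusted p = 1.96e-06). Dlg2, the scaffold PSD-93 that binds GluN2 tails, went from 59.17 and 53.31 to 11.85 and 10.37 FPKM (-2.33), and Camk2a, the calcium-dependent kinase that docks on GluN2B, from 11.36 and 12.24 to 2.69 and 1.72 FPKM (-2.40). All 3 remained lower after length correction, by -1.20, -1.97 and -1.49. The paralogs Lin7a and Lin7b, adaptors that link the receptor to transport and scaffold proteins, moved in opposite directions. Lin7a fell from 27.75 and 28.67 to 3.6 and 5.51 FPKM (-2.64, and -2.66 corrected), whereas Lin7b rose from 40.49 and 35.13 to 223.1 and 210.98 FPKM (2.52, and 1.53 corrected). In shPax6 Lin7b also rose, from 21.76 and 26.93 to 109.47 and 134.19 FPKM (2.32, adjusted p = 2.9e-06), and in JNK3 KO it measured 41.93 and 42.78, then 37.75 and 36.55 FPKM. Cdk5, a kinase of the GluN2A tail, was the only other partner to rise in WT (0.35), and its call was lost with the correction.

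**Figure D5:**
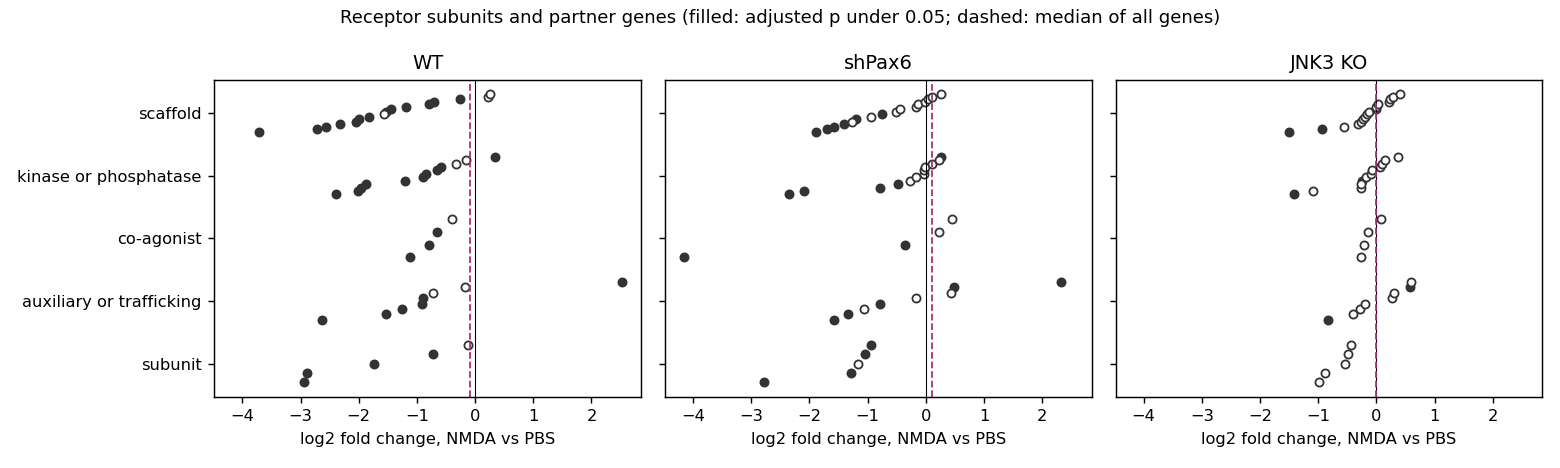
Log2 fold change of NMDA against PBS (horizontal axis, 1 scale for the 3 genotypes) of 40 partner genes by role and of the 5 tested subunits; filled points have an adjusted p under 0.05, and the dashed line is the median of all genes. In WT 30 of the 40 partners are filled on the left of zero, in JNK3 KO 5.

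The AMPA, kainate and delta receptor genes, the other ionotropic glutamate receptors, gave 8 of 11 lower and 0 higher in WT (median -1.50 on the log2 scale, -0.72 after length correction), 6 lower and 0 higher in shPax6 (median -0.62) and 0 lower and 1 higher in JNK3 KO (median -0.12). The shares of all genes called lower were 33.8%, 11.0% and 6.10%, and 4.33% were called higher in JNK3 KO. Under PBS 6 of the 11 were lower in shPax6 than in WT, against 11.2% of all genes. The NMDA receptor subunits, at medians of -1.74, -1.16 and -0.54, were lower than these in each genotype as a description, but after the length correction their median in WT was -0.44, above the -0.72 of the other receptors. The difference was not tested.

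The genes whose log2(FPKM + 0.1) over the 12 libraries followed a member most closely were Syt13, Tmcc2 and Crmp1 for Grin1 (Pearson r 0.985, 0.983 and 0.982), Megf11, Plcb1 and Rgs7bp for Grin2a (0.986, 0.983 and 0.983), Fbxo21, Cds2 and Dnajc27 for Grin2b (0.988, 0.983 and 0.982), Kcna6, Galnt14 and Plb1 for Grin2d (0.978, 0.974 and 0.969), and Htr1b, Sv2c and Jph3 for Grin3a (0.974, 0.964 and 0.96). Among members, Grin2a was closest to Grin3a (0.916) and Grin2b (0.907), and Grin1 to Grin2d (0.879). These values share the groups, depth and length dependence of the libraries and are given as a description.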

How the data were processed

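Poly(A) RNA of retina was sequenced as paired reads (2x101). Per the labels, reads were aligned to GRCm38.p6 with STAR 2.7.1a, abundance was estimated with RSEM 1.3.3, and edgeR 3.36.0 in R 4.1.0 was used. The authors deposited FPKM of genes and transcripts, which are relative to each library's total, so that a rise of some genes lowers others. As FPKM are not counts, no count model was fitted here. GENCODE M21 gave transcript structures and lengths for 55141 of the 55487 genes.

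The members and gene lists were chosen with earlier results of these data known. Values were analysed as log2(FPKM + 0.1), a scale that understates changes of low genes, for genes whose mean exceeded 1 FPKM in any of 6 groups. The model had 6 group means, leaving 6 residual degrees of freedom, and used limma 3.58.1 in R 4.3.3 with an intensity trend. P-values were adjusted by the Benjamini-Hochberg method over 16471 genes or 49940 transcripts, with calls under 0.05. The Grin2a to Grin2b ratio and the Grin1 share were tested by two-sided exact permutation within genotypes, over all arrangements. The genes named were the 7 members, their transcripts above 1 FPKM, up to 4 rising and 4 falling partners with the largest called changes in WT (mean above 1 FPKM in both groups, no overlap; 2 rose), the 3 genes most correlated with each tested member, and the targeted genes. The length correction subtracted from each library a lowess curve (span 0.3) of its deviation from the mean library over transcript length.

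In simulated WT NMDA data of 16471 genes, 39 of 100 genes changed by 1 and 71 of 100 changed by 2 on the log2 scale were found, with 7 false calls. The alternatives concerned the pseudocount (0.5 and 1), the filter, TPM, 75th-percentile and quantile scaling, the spread, the trend, a replicate block, transcript length, gene values summed from transcripts, the calling rule and each library in turn. The joint omission of the 3 low-complexity libraries was chosen after seeing the data. Same-numbered libraries did not deviate together (r from -0.0973 to 0.0858 in 15 pairs). Python 3.11.15, numpy 2.4.6, pandas 2.3.3 and matplotlib 3.10.9 were used.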

Additional observations from a re-analysis of the deposited data

Results flagged for a closer look

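Among the subunits, 3 differences between the responses of 2 genotypes passed the adjusted threshold of limma. All 3 concern Grin2a or Grin2b, which passed the filter only through PBS groups and were highest in WT given PBS. This favours a larger fall in WT, so the calls are a description. Of all genes, 49.7% passed it in WT minus shPax6 and 51.4% in WT minus JNK3 KO. For Grin2b the log2 response in WT minus that in shPax6 was -1.60, with both NMDA libraries below both PBS libraries in each genotype. For Grin2b in WT minus JNK3 KO it was -2.35, and for Grin2a in WT minus JNK3 KO -1.96. With the length correction these became 0.33, 0.35 and 0.24, and the part of the length trend of the WT NMDA libraries cannot be told apart from that of the treatment.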

How the results depend on the processing

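Of the subunit counts and the 2 within-library measures, 201 values under the alternatives kept their call or count within 1.5 times, 36 counts moved further, and 3 tests gained and 3 lost their call, while 895 values of single subunits kept their direction and side of the threshold, with 37 gained calls, 23 lost calls and 21 reversals. The cause was not tested, except that filtering on the average over the 12 libraries leaves only Grin1 and Grin2d to be tested. In WT 4 subunits were called, against 1 with that filter and 1, Grin2d in the other direction, with the length correction. In shPax6 4 were called, against 2 with that filter and 1 with the spread of the compared groups alone. In JNK3 KO 0 were called, against 1 with the spread of its groups alone, 2 without the intensity trend, 3 without the 3 low-complexity libraries and 0 to 1 with single libraries left out. For shPax6 against WT under PBS, the count of 1 became 3 without the trend, 2 without the 3 libraries, 0 by an unadjusted p under 0.05 with an absolute log2 value above 1, and 0 to 2 with single libraries left out.

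For response differences, WT minus shPax6 had 1 call, against 0 with a pseudocount of 1, 0 with the filter on the average, 2 without the trend, 2 with the length correction, 2 without the 3 libraries and 0 to 2 with single libraries left out. WT minus JNK3 KO had 2, against 1 with a pseudocount of 1, 0 with that filter, 1 with quantile normalization, 1 with the length correction and 1 to 2 with single libraries left out. For shPax6 minus JNK3 KO the count of 0 became 2 without the trend, 2 without the 3 libraries, 1 by the same unadjusted criterion and 0 to 1 with single libraries left out. The Grin2a to Grin2b ratio was -0.78 with the length correction and -0.76 to -0.55 with single libraries left out, and the Grin1 share of the summed subunit FPKM differed by 0.927 points with the correction and by 2.05 to 4.7 points with single libraries left out.

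Log2 values that changed sign with the length correction were 0.89 for Grin2d in WT, 1.48, 0.33 and 0.66 for Grin2a, Grin2b and Grin3a in WT minus shPax6, 0.37, 0.24, 0.35 and 0.66 for Grin1, Grin2a, Grin2b and Grin3a in WT minus JNK3 KO, and 0.02 for Grin2b in shPax6 minus JNK3 KO. Quantile normalization gave 0.29 for Grin2d in WT, and 0.13 and 0.20 for Grin2a and Grin3a in WT minus shPax6. TPM gave -0.20 for Grin1 in WT minus shPax6 and -0.25 for Grin2d in WT minus JNK3 KO, and moved the median of all genes in WT from -0.09 to -0.66. A pseudocount of 1 gave 0.01 for Grin3a in shPax6 minus JNK3 KO. Without the 3 libraries, Grin2a and Grin3a in WT minus shPax6 were 0.35 and 0.35. With single libraries left out, Grin2a in WT minus shPax6 ranged from -0.44 to 0.11, Grin1 in WT minus JNK3 KO from -0.51 to 0.04, and Grin3a in shPax6 minus JNK3 KO from -0.83 to 0.29.

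The replicate numbers did not pair the libraries. With the replicate block the counts were 4 in WT, 4 in shPax6 and 0 in JNK3 KO, and it changed no other call of a subunit in any comparison.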
